A study of Mus musculus with 20 samples.

Results

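Peripheral blood mononuclear cells (PBMCs) that had been cultured with human chorionic gonadotropin (hCG) were compared with PBMCs cultured without it, by the RNA of the uterus that received them. The comparison holds 10 of the 20 mice of the study, the 5 PBMC-hCG mice against the 5 PBMC mice, chosen by the sample labels, with 1 library per mouse. All were wild-type B6D2F1 females aged 8 to 12 weeks, mated with males, with the morning of the vaginal plug taken as day 0.5. Both groups received PBMCs of non-pregnant female donors into the uterine horns on day 1.5 and RU486 (mifepristone) under the skin on the morning of day 3.5, and uterine tissue was collected at 18:00 on day 3.5. The agent that differed between them was hCG, added during the culture of the cells. The culture supernatant was removed, and the cells were resuspended in medium for transfer. The study's methods do not say whether that medium held hCG in the PBMC-hCG group. The IF (implantation failure) group of 5 mice received RU486 alone, and the control group of 5 mice received neither RU486 nor cells. No group given hCG in medium alone was analysed here, so an action of the cells cannot be told apart from one of hCG transferred with them. The donors behind each recipient are not given in the labels, and p-values measure the spread between recipient mice.

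hCG is the pregnancy hormone of the human trophoblast and acts on the luteinizing hormone receptor. RU486 blocks the progesterone and glucocorticoid receptors, and progesterone holds back the estrogen response of the uterine epithelium before an embryo attaches. PBMCs are lymphocytes and monocytes, which release cytokines and interferons. Interferons act on neighbouring cells through receptors that activate a complex of transcription factors, which binds the interferon-stimulated response element in the promoters of antiviral genes. Such genes are known to be switched on in the uterus of several mammals around implantation.

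Values are TPM, transcript abundances made and deposited by the authors, which are scaled to a fixed total and to transcript length. The totals lay between 999989 and 999999, so the read depth is unknown and no counting interval is given. Differences are those of log2(TPM + 0.1), PBMC-hCG minus PBMC, in a limma fit of all 4 groups over the 18706 genes above 0 TPM in all 20 libraries. This scale understates the change of genes at low TPM. A gene is called higher or lower below when its raw p-value in that fit was under 0.05, and a log2 difference without further remark belongs to a called gene. The p-values adjusted over all tested genes (Benjamini-Hochberg, limma) lay between 0.264 and 0.309 for all called genes but 2, so they are printed for a few genes only. The 13 marker genes of uterine epithelium, glands, stroma, muscle and vessels and of the steroid receptors that were looked up were above 0 TPM in all 10 mice, from 4.84 TPM for Foxa2, a gland factor, to 853 TPM for Des, a muscle filament. In a uterus sampled whole, fewer cells of a type and less RNA per cell cannot be told apart.

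The groups differed by many small shifts and few large ones. Raw p-values were under 0.05 for 3024 genes, 16.2% of those tested, with 1620 higher (8.66%) and 1404 lower (7.51%) in the PBMC-hCG group. A fold change of at least 2 was also met by 167 of them (0.893%), of which 72 were higher (0.385%) and 95 lower (0.508%). After adjustment 2 genes remained, which is 0.0107% of those tested. In 372 genes (1.99%) every PBMC-hCG mouse lay above every PBMC mouse, and in 275 (1.47%) every one lay below. The median log2 difference of all tested genes was 0.02. The 3024 genes became 1391 when PBMC replicate 5 was left out, and between 1891 and 1949 when PBMC replicate 3 or PBMC-hCG replicate 2, 3 or 4 was, and the 167 genes became 105 when PBMC replicate 5, 264 when PBMC replicate 4 and 288 when PBMC-hCG replicate 1 was. After quantile normalization 52 of the 166 called genes were higher and 114 lower, and with both mice that are described next left out 62 were higher and 106 lower. Among the 167 genes, 95 were protein-coding, 32 averaged under 1 TPM and 31 had no overlap between the groups. Every count of list members below is to be read beside the shares of 8.66% higher and 7.51% lower. In a short list a few called members can lie near these shares.

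In a principal component analysis of the 10 mice, 41.9% of the variance lay on the first component (PC1) and 10.9% on the next (PC2). PBMC mice lay at -4.0, -5.0, -30.6, 5.5 and -62.7 on PC1 in replicate order, and PBMC-hCG mice at -12.1, 29.3, 31.0, 28.2 and 20.5. Thus 4 of the 5 PBMC-hCG mice lay beyond all PBMC mice, and PBMC-hCG replicate 1 lay among them. The difference was 38.7 (two-sided exact permutation test, p = 0.0317, adjusted p = 0.0475 over 3 tests). It no longer passed when any of PBMC-hCG replicates 2 to 5 was left out (exact p = 0.0635 for each). On PC2 the groups differed by 11.3 (exact permutation p = 0.278, adjusted p = 0.278). PBMC replicate 5, at the far end of PC1, and PBMC-hCG replicate 1, on the side of the other group, are called below the mice that stood apart, and counts are also given without both. By Dixon's ratio of gap to range, PBMC-hCG replicate 1 was an outlier of its group on PC1 and PBMC replicate 5 was not.

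**Figure D1:**
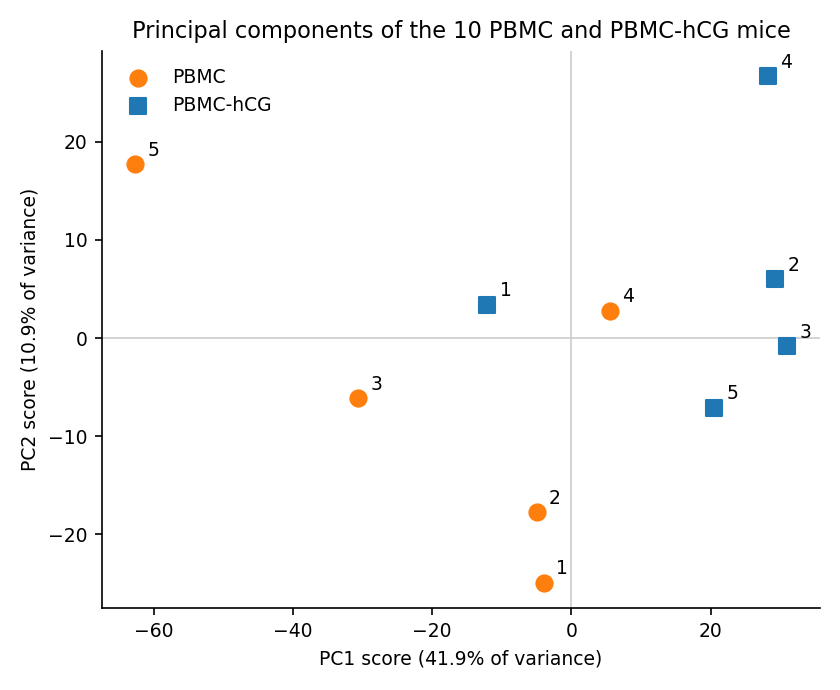
Scores of the 10 mice on PC1 (x axis) and PC2 (y axis) of their centred log2(TPM + 0.1) values, with no unit. Each point is 1 mouse, labelled with its replicate number, circles for PBMC and squares for PBMC-hCG. PBMC replicate 5 lies at -62.7 and PBMC-hCG replicate 1 at -12.1 on PC1, against 20.5 to 31.0 for the other PBMC-hCG mice.

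The number of genes above 0 TPM was also larger with hCG. It averaged 23589 ± 154 (SD) in PBMC-hCG and 23031 ± 296 (SD) in PBMC libraries, a difference of 558 genes (exact permutation test, p = 0.0159, adjusted p = 0.0475). The groups overlapped, with PBMC replicate 1 at 23503 above PBMC-hCG replicate 2 at 23315. Groups without cells also reached such numbers, from 22912 to 23668 in control and from 22784 to 24097 in IF libraries. Counting values of at least 0.1 TPM, the difference was 257 genes (exact permutation p = 0.0635), and with values of at least 1 TPM it was 39.2 genes (exact permutation p = 0.683). Its part in the results below was not tested. Genes listed at 0 in all 5 PBMC libraries and above 0 in all 5 PBMC-hCG libraries numbered 9, at no more than 0.29 TPM in any mouse, and there were 0 of the opposite kind.

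Interferon-stimulated genes, which build the antiviral state of a cell, were higher in the PBMC-hCG uteri almost throughout. Of 38 such genes, all tested, 34 were higher in the PBMC-hCG group and 0 lower, against 8.66% and 7.51% of all tested genes. All 38 had a positive log2 difference, with a median of 0.65 and a range of 0.07 to 2.01, where the median of all tested genes was 0.02. None passed adjustment, with an adjusted p of 0.264 at best, and in 1 gene the groups did not overlap. Without PBMC replicate 5 and PBMC-hCG replicate 1, 32 were higher and 0 lower, and with single mice left out 29 (without PBMC replicate 3 or PBMC-hCG replicate 4) to 35 were. Median scaling and quantile normalization left no member lower.

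Promoters are shown of 4 of these genes, picked for a match to the element through which interferons are known to act. The windows run from 250 bases before to 50 bases after the transcription start, are those of RefSeq on build GRCm38.p6, where the start used for Ifit3 lies inside the span of the gene given below, and are written 5′ to 3′ along the gene. Capitals mark matches to GAAANNGAAA, the core of the interferon-stimulated response element, on either strand. The first 4 genes of the list by raw p-value with a match are given. Ifi44, with the smallest raw p-value of the list, and Cmpk2 had a window without a match and were passed over.
Ifih1, chr2:62646206-62646505, minus strand: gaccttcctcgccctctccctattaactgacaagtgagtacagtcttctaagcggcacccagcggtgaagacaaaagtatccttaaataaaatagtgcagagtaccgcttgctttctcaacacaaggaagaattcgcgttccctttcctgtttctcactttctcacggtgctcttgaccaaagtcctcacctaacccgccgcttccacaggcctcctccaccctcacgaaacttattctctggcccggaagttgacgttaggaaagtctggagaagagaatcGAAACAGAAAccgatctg
Ifit1, chr19:34640639-34640938, plus strand: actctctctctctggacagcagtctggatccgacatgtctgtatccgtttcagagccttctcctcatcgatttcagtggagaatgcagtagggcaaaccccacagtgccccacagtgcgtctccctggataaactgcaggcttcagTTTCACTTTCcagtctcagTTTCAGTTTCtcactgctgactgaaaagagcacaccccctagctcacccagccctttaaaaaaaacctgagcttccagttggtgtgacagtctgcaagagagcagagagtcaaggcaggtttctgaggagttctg
Isg15, chr4:156200769-156201068, minus strand: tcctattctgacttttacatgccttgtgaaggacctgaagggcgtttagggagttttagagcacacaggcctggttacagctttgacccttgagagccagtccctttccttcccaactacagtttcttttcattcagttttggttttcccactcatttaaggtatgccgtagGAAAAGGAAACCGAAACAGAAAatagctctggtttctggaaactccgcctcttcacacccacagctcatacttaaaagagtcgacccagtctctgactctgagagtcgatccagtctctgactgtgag
Ifit3, chr19:34583279-34583578, plus strand: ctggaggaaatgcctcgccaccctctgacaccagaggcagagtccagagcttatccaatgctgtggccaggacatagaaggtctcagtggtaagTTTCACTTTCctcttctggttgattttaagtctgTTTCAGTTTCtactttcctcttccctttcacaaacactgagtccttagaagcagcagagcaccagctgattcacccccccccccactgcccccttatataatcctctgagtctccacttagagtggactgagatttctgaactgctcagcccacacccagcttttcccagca
A window was at hand for 26 of the 38 genes, and 16 of these (61.5%) held a match, compared with 3.89% of the 13072 tested genes with a window and 3.99% of all 27025 genes of the table. Ifit1 and Ifit3 each hold a pair of separate matches, and in Isg15 the matches run into each other. These genes were listed because interferons are known to induce them, so a high share of matches follows from how the list was made. It says nothing about the difference between the PBMC-hCG and PBMC groups. A match describes the letters of the window and was not tested as a binding site.

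Of the IFIT genes, whose proteins bind foreign RNA, Ifit1, Ifit3 and Ifit3b had the largest log2 differences of the list. Ifit1 (NCBI gene 15957, chr19:34640889-34650009) was at 20.4, 40.6, 16.8, 57 and 17.4 TPM in PBMC replicates 1 to 5 and 47.1, 100, 121, 92.3 and 39.1 TPM in PBMC-hCG replicates 1 to 5. PBMC-hCG replicates 2, 3 and 4 exceeded every PBMC mouse, while replicates 1 and 5 lay below PBMC replicate 4. For Ifit1 the log2 difference was 1.44 ± 0.36 (SE; limma, Benjamini-Hochberg adjusted p = 0.264). Ifit3 (NCBI gene 15959, chr19:34583119-34588982) stood at 15.4, 27.5, 14.9, 43.1 and 15.3 TPM in PBMC replicates 1 to 5 and 38.6, 113, 130, 150 and 33.5 TPM in PBMC-hCG replicates 1 to 5, with the same 3 PBMC-hCG mice above all others. The log2 difference of Ifit3 was 1.88 ± 0.55 (SE). Ifit3b, its close paralog, had one of 2.01 ± 0.60 (SE), and the reads of the pair may be shared. Ifit2 differed by 0.73.

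Isg15, a ubiquitin-like protein that is attached to other proteins during the antiviral state, was at 51.8, 89.2, 59.4, 120 and 77.1 TPM in PBMC replicates 1 to 5 and 109, 182, 207, 224 and 87.5 TPM in PBMC-hCG replicates 1 to 5, and its groups overlapped through PBMC-hCG replicates 1 and 5. Isg15 differed by 1.0 ± 0.26 (SE) on the log2 scale. Usp18, which removes ISG15 again, differed by 0.95 ± 0.24 (SE). Mx1 and Mx2, named for antiviral GTPases but classed by RefSeq as transcribed pseudogenes, differed by 1.35 and 1.28. The nucleotide-modifying enzymes Rsad2 and Cmpk2 differed by 1.19 and 1.13, and the oligoadenylate synthetase gene Oas3 by 1.07. Ifi44 (NCBI gene 99899, chr3:151730922-151749910) had the smallest raw p-value of the list. It was at 12.6, 15.8, 12.6, 21.8 and 14.8 TPM in PBMC replicates 1 to 5 and 22.9, 33.6, 34.2, 36.1 and 20.1 TPM in PBMC-hCG replicates 1 to 5. Only PBMC replicate 4 reached into the range of the PBMC-hCG mice, and the log2 difference was 0.90 ± 0.19 (SE; limma, Benjamini-Hochberg adjusted p = 0.264).

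The list also holds sensors and transcription factors of the pathway. Ifih1, a sensor of viral RNA, differed by 0.72 ± 0.18 (SE), and Ddx58, which encodes the related sensor RIG-I, by 0.53 ± 0.20 (SE). Irf7, the factor that amplifies interferon production, was at 44.3, 61.7, 43.9, 80 and 54.3 TPM in PBMC replicates 1 to 5 and 78, 125, 127, 144 and 65 TPM in PBMC-hCG replicates 1 to 5, a log2 difference of 0.90 ± 0.26 (SE). Stat2 differed by 0.51 ± 0.16 (SE). Members that missed the threshold included Bst2 (0.24), Gbp2 (0.13) and Ifi27l2a (0.07).

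**Figure D2:**
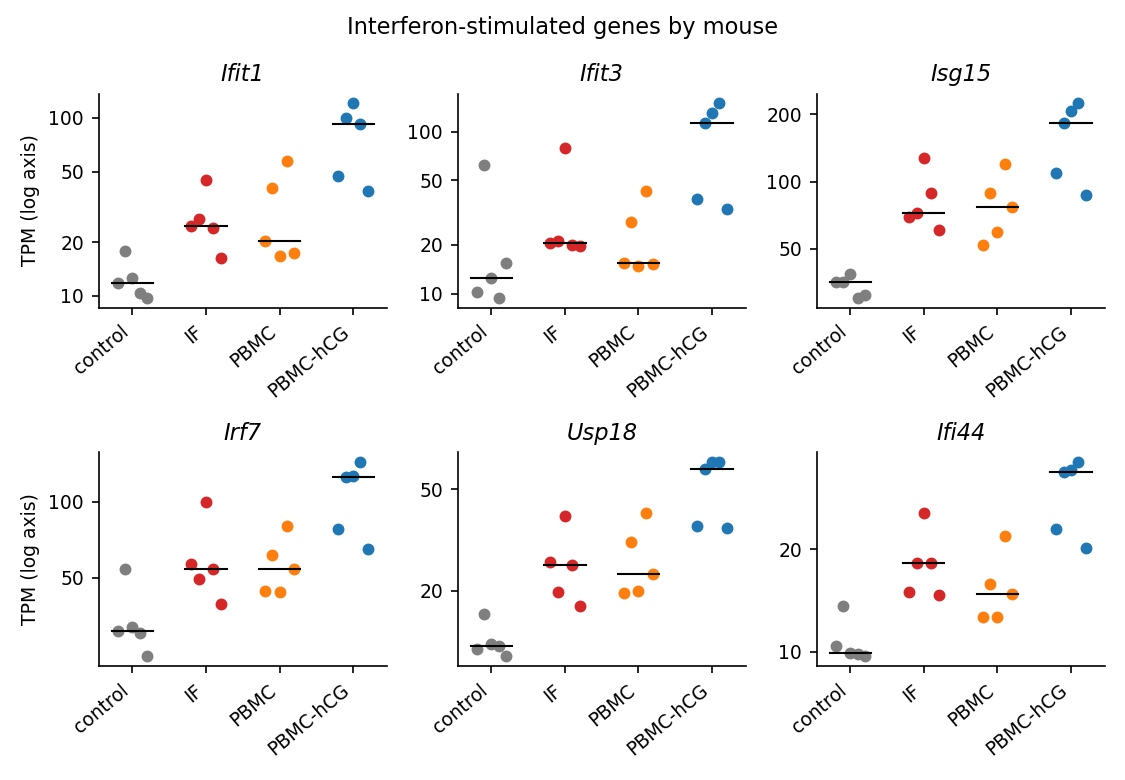
TPM on a log axis of 6 interferon-stimulated genes in each of the 20 mice, by group, with replicates 1 to 5 from left to right and a black line at the group median. For Ifit3, PBMC-hCG mice lie between 33.5 and 150 TPM and PBMC mice between 14.9 and 43.1 TPM.

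Levels of these genes in the other groups give the scale of the difference. The median of Ifit1 was 11.8 TPM in the control and 24.7 TPM in the IF group, that of Isg15 35.7 TPM in the control and 72 TPM in the IF group and that of Ifi44 9.89 TPM in the control and 18.2 TPM in the IF group. In both of those groups the median of each of these genes lay below that of the PBMC-hCG group. The summed TPM of the 38 genes ran from 1071 to 1603 in control, 1451 to 2446 in IF, 1498 to 2370 in PBMC and 1985 to 3071 in PBMC-hCG mice. The groups that received cells thus overlapped in this sum through PBMC replicate 4 at 2370 and PBMC-hCG replicates 1 and 5 at 2085 and 1985.

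Interferon genes themselves were scarcely detected. Of 20 interferon genes in the table, 13 were listed at 0 in all 10 mice, among them Ifnb1 and 11 of the 13 interferon alpha genes. Ifng, from T and NK cells, lay between 0.27 and 0.508 TPM in PBMC and between 0.139 and 1.05 TPM in PBMC-hCG mice. Ifne, the interferon made by the epithelium of the female tract, lay between 1.29 and 3.36 TPM in PBMC and between 1.05 and 1.82 TPM in PBMC-hCG mice. The receptor genes Ifnar1 and Ifnar2 had log2 differences of 0.06 ± 0.09 (SE) and 0.11 ± 0.09 (SE), and neither was called.

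Markers of immune cells were counted beside this result, where 8.66% of all tested genes were higher and 7.51% lower. Of 19 tested T cell markers 1 was higher and 1 lower, of 10 B cell markers 1 and 1, of 14 NK cell markers 2 and 0, of 20 monocyte and macrophage markers 3 and 0, and of 9 dendritic cell markers 0 and 0. These small counts moved with single mice. Lower T cell markers numbered 4 if PBMC-hCG replicate 1 was left out, higher NK cell markers 0 if PBMC replicate 5 and 4 if PBMC-hCG replicate 2 was, and higher macrophage markers 1 if PBMC replicate 5 and 0 if PBMC-hCG replicate 2 was. The summed TPM of the T cell list ran from 88 to 124 in PBMC and from 93.7 to 136 in PBMC-hCG mice, and that of the macrophage list from 1655 to 1801 and from 1548 to 2144. Ighm, the heavy chain of the B cell receptor, was at 32.9, 34.8, 26.9, 39.7 and 20.5 TPM in PBMC replicates 1 to 5 and 50.9, 69.2, 44.5, 53.9 and 43.1 TPM in PBMC-hCG replicates 1 to 5. Every PBMC-hCG mouse was above every PBMC mouse, with a log2 difference of 0.77 ± 0.18 (SE; limma, Benjamini-Hochberg adjusted p = 0.264). Blk, a kinase gene of B cells, went the other way, with a log2 difference of -0.64 ± 0.27 (SE) and groups that overlapped. So did Iglc1, a light chain constant gene, at -2.32 ± 0.88 (SE), also with overlap. Among plasma cell markers 0 were higher and 1 lower, and the lower count ran from 0 to 2 with single mice left out. The part of these cells in the interferon result was not tested.

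MHC genes, which interferons are also known to raise, had 2 of 24 higher (8.33%, beside 8.66% of all tested genes) and 0 lower and a median log2 difference of 0.17. The count was 0 if PBMC replicate 3 or 5 or PBMC-hCG replicate 2, 3 or 4 was left out, 1 if PBMC replicate 1 was, 5 if PBMC-hCG replicate 1 or 5 was and 7 if PBMC replicate 4 was. Complement genes had 7 of 22 higher and 1 lower, beside 8.66% and 7.51% of all tested genes, with a median of 0.16. Of these, Cfb, an alternative pathway protease, was at 26.6, 33.2, 30, 43.7 and 36.8 TPM in PBMC replicates 1 to 5 and 40.2, 67.9, 50.2, 64.8 and 31.4 TPM in PBMC-hCG replicates 1 to 5, and 3 PBMC-hCG mice exceeded every PBMC mouse. Cfb differed by 0.54 ± 0.18 (SE) on the log2 scale, and that of its neighbour C2 was 0.47 ± 0.15 (SE). Vnn1, a pantetheinase gene and among the 10 largest non-overlapping gains at a mean of at least 1 TPM, was at 0.801, 0.763, 0.799, 1.54 and 0.683 TPM in PBMC replicates 1 to 5 and 1.79, 2.4, 2.19, 3.44 and 2 TPM in PBMC-hCG replicates 1 to 5 (log2 difference 1.29 ± 0.34 (SE)).

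Genes that the study measured by PCR were mostly lower with hCG. The study chose them with these libraries in view, so their direction is not independent evidence. Of 19 genes, all tested, 10 were lower and 1 higher, and the median log2 difference was -0.65. Without PBMC replicate 5 and PBMC-hCG replicate 1 the count of lower genes was 10 again, and with single mice left out it lay between 8, if PBMC replicate 5 or PBMC-hCG replicate 3 was left out, and 14, if PBMC-hCG replicate 1 was. None passed adjustment, and in none were the groups apart.

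Has1, which makes the matrix polysaccharide hyaluronan, was at 3.07, 9.91, 20.6, 8.89 and 33.3 TPM in PBMC replicates 1 to 5 and 6.99, 3.88, 1.12, 1.32 and 2.24 TPM in PBMC-hCG replicates 1 to 5. The groups overlapped through PBMC replicate 1 and PBMC-hCG replicates 1 and 2, and the log2 difference was -2.15 ± 0.58 (SE; limma, Benjamini-Hochberg adjusted p = 0.264). Its median was 3.82 TPM in the control and 17.1 TPM in the IF group. Tnc, which encodes the matrix protein tenascin C, was at 87.8, 90.9, 105, 32.5 and 242 TPM in PBMC replicates 1 to 5 and 94.2, 21.1, 23.2, 10.4 and 23.6 TPM in PBMC-hCG replicates 1 to 5. PBMC-hCG replicate 1 lay within the PBMC range and the other 4 below it, with a log2 difference of -1.83 ± 0.60 (SE).

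Wnt4, a ligand that the stroma needs for decidualization, was at 16.3, 18.6, 28, 11.7 and 54.4 TPM in PBMC replicates 1 to 5 and 23.3, 6.7, 6.18, 7 and 7.8 TPM in PBMC-hCG replicates 1 to 5, again with PBMC-hCG replicate 1 alone inside the PBMC range, and differed by -1.33 ± 0.41 (SE). The median of Wnt4 was 4.79 TPM in the control and 25.2 TPM in the IF group, and all 5 PBMC-hCG mice stood between these medians. Vegfa, the main endothelial growth factor, differed by -0.53 ± 0.18 (SE), Ackr3, a scavenger receptor of the chemokine CXCL12, by -0.81 ± 0.24 (SE), Ccl11, the eosinophil attractant, by -0.60 ± 0.21 (SE), and Pmepa1, a brake on TGF-beta signalling, by -0.78 ± 0.27 (SE). Without both mice that stood apart, these differences were -0.59 for Vegfa, -0.81 for Ackr3, -0.55 for Ccl11 and -0.72 for Pmepa1, and all were called. If PBMC replicate 5 alone was left out, Ccl11 differed by -0.39 and was called.

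**Figure D3:**
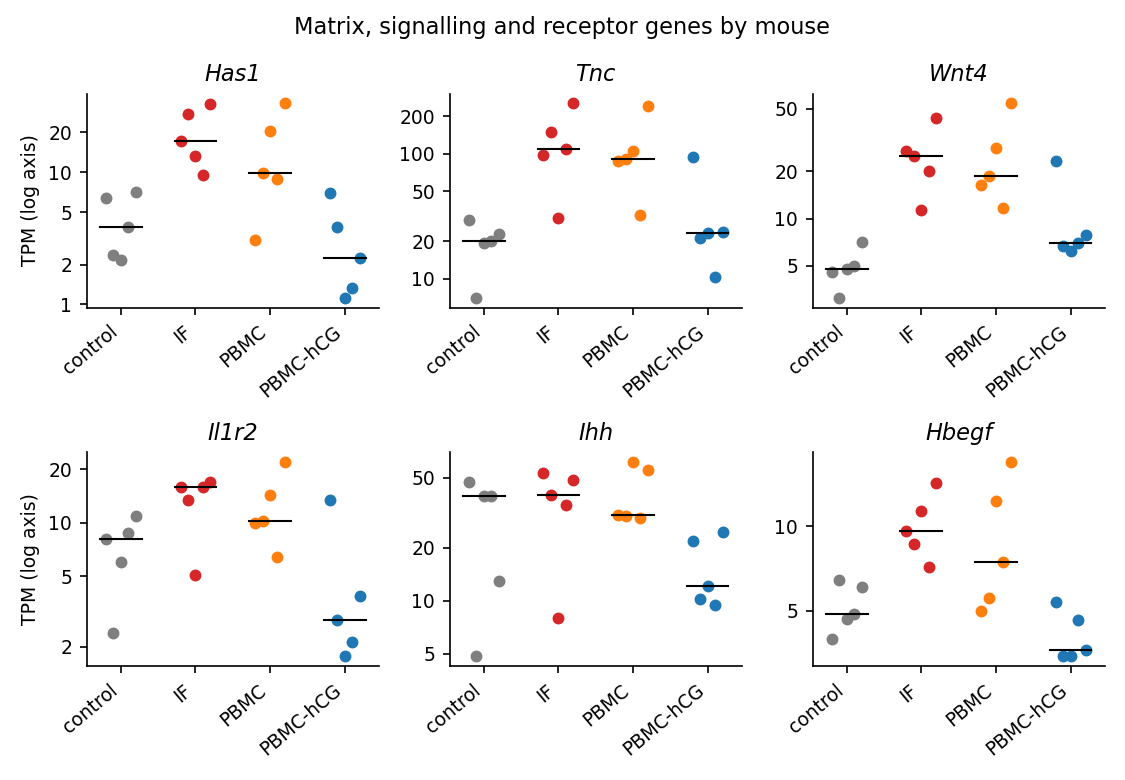
TPM on a log axis of 6 genes in each of the 20 mice, by group, with replicates 1 to 5 from left to right and a black line at the group median. In the PBMC-hCG group the first mouse lies highest for Has1, Tnc, Wnt4, Il1r2 and Hbegf, and for Ihh the PBMC-hCG mice (9.5 to 24.4 TPM) lie below the PBMC mice (29.5 to 61.5 TPM).

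Nr3c1, the glucocorticoid receptor, was the gene of the set that was higher. It was at 28.9, 26.7, 27.1, 28.2 and 22.8 TPM in PBMC replicates 1 to 5 and 28.6, 33.9, 32.2, 31.6 and 29.2 TPM in PBMC-hCG replicates 1 to 5, a log2 difference of 0.22 ± 0.08 (SE), which became 0.16 and missed the threshold without PBMC replicate 5. Among 8 tested gonadotropin and steroid receptor genes 4 were higher and 0 lower, with a median of 0.20. The count was 0 of 8 when PBMC replicate 5 was left out and 2 of 8 without both mice that stood apart. The estrogen receptor gene Esr1, at 0.10 ± 0.06 (SE), and the progesterone receptor gene Pgr, at -0.05 ± 0.14 (SE), were not called, and Pgr changed sign without PBMC replicate 5 (0.04) or PBMC-hCG replicate 3 (0.05). Lhcgr, the receptor on which hCG acts, was listed at 0.0898, 0, 0.0385, 0.046 and 0 TPM in PBMC and at 0, 0.0856, 0.018, 0.0343 and 0.0857 TPM in PBMC-hCG replicates 1 to 5, and was not tested.

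Targets of the receptors that RU486 blocks split between directions. Of 16 glucocorticoid receptor targets 3 were higher and 3 lower, beside 8.66% and 7.51% of all tested genes. Zbtb16, a transcription factor induced by glucocorticoids and progestins, was at 2.69, 2.75, 1.92, 3.09 and 1.66 TPM in PBMC replicates 1 to 5 and 4.17, 3.94, 4.18, 4.69 and 3.6 TPM in PBMC-hCG replicates 1 to 5, with no overlap and a log2 difference of 0.77 ± 0.23 (SE). All 10 of these mice were far below the control median of 33.9 TPM. Cebpd, on the other side, differed by -0.66 ± 0.23 (SE). The lower count was 6 if PBMC replicate 1 was left out and 1 if PBMC replicate 3 or 5 or PBMC-hCG replicate 3 was, and the higher count 1 if PBMC replicate 5 was.

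Of 19 progesterone receptor targets 1 was higher and 3 lower, beside 8.66% and 7.51% of all tested genes. If PBMC replicate 3 was left out, 1 was lower. Ihh (NCBI gene 16147, chr1:74945315-74951672), the epithelial hedgehog ligand induced by progesterone, was among the lower genes. It was at 30.6, 30.4, 61.5, 29.5 and 55.1 TPM in PBMC replicates 1 to 5 and 21.8, 10.2, 12.1, 9.5 and 24.4 TPM in PBMC-hCG replicates 1 to 5, with every PBMC-hCG mouse below every PBMC mouse and a log2 difference of -1.44 ± 0.57 (SE). That difference was -1.28 without PBMC replicate 3 and -1.29 without PBMC-hCG replicate 4, and missed the threshold in both. The Ihh median was 39.4 TPM in the control and 39.7 TPM in the IF group, but the ranges of 4.83 to 47.4 TPM in control and 8.02 to 53.4 TPM in IF mice held every PBMC-hCG mouse. Slc5a1, a sodium-glucose cotransporter, also kept the groups apart at 7.79, 7.19, 12, 7.88 and 13.2 TPM in PBMC replicates 1 to 5 and 5.52, 2.12, 3.24, 1.95 and 4.75 TPM in PBMC-hCG replicates 1 to 5, without overlap (log2 difference -1.50 ± 0.52 (SE)).

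Estrogen-responsive genes were lower where they differed, with 1 exception. Of 20 early estrogen response genes 5 were lower and 0 higher, with a median log2 difference of -0.35, and of 14 tested late response and secretory genes 3 were lower and 1 higher, with a median of -0.11. If PBMC-hCG replicate 4 was left out 3 early genes were lower, and if PBMC-hCG replicate 1 was, 8. The lower late genes were small proline-rich genes of the epithelium, a family of near-identical copies in which reads may be shared. Sprr2f was at 76.9, 32.6, 72.4, 13.8 and 110 TPM in PBMC replicates 1 to 5 and 23, 5.8, 4.04, 4.82 and 19.8 TPM in PBMC-hCG replicates 1 to 5, and PBMC replicate 4 and PBMC-hCG replicates 1 and 5 overlapped. The log2 difference of Sprr2f was -2.46 ± 0.74 (SE), that of Sprr2g -3.12 ± 0.99 (SE) and that of Sprr2a1 -2.33 ± 0.76 (SE).

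Areg, an EGF family ligand of the luminal epithelium, was not tested because it was listed at 0 in some libraries. It was at 2.87, 3.57, 6.33, 1.01 and 25.8 TPM in PBMC and at 1.75, 0.163, 0, 0 and 0.16 TPM in PBMC-hCG replicates 1 to 5, so that PBMC replicate 4 and PBMC-hCG replicate 1 overlapped. Hbegf, a related ligand, was at 4.98, 5.54, 12.3, 7.45 and 17 TPM in PBMC replicates 1 to 5 and 5.37, 3.45, 3.43, 4.62 and 3.62 TPM in PBMC-hCG replicates 1 to 5, a log2 difference of -1.05 ± 0.28 (SE). Feedback regulators that ERK signalling induces were lower too, Dusp6 by -0.57 ± 0.17 (SE) and Dusp4 by -0.92 ± 0.28 (SE), whereas the receptor gene Erbb3 was higher by 0.60 ± 0.21 (SE). In all, 5 of 18 tested genes of the EGF family and its feedback were lower and 2 higher, with 3 lower if PBMC replicate 3 or 5 or PBMC-hCG replicate 3 was left out.

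Lif, the cytokine that opens the window of implantation, was at 3.75, 1.95, 5.7, 2.46 and 3.83 TPM in PBMC replicates 1 to 5 and 3.31, 0.622, 1.66, 1.86 and 2.72 TPM in PBMC-hCG replicates 1 to 5, and its difference of -0.85 ± 0.66 (SE) was not detectable against this spread. Of 27 tested decidualization and receptivity genes 6 were lower and 1 higher, with a median of -0.10, and 3 were lower if PBMC-hCG replicate 2 was left out. Ptgs2, the inducible prostaglandin synthase, was at 1.47, 1.61, 4.43, 1.54 and 10.7 TPM in PBMC replicates 1 to 5 and 1.9, 0.478, 0.491, 0.432 and 0.814 TPM in PBMC-hCG replicates 1 to 5, a log2 difference of -1.87 ± 0.55 (SE). PBMC-hCG replicate 1 alone lay inside the PBMC range. Of 22 tested prostaglandin and leukotriene genes 4 were lower and 3 higher, beside 7.51% and 8.66% of all tested genes. If PBMC-hCG replicate 2 or 4 was left out, 2 were lower.

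Receptors for inflammatory cytokines included several lower genes. Of 28 cytokine receptor genes 6 were lower and 2 higher, while of 13 tested ligands 1 was lower and 2 higher. Over all tested genes 7.51% were lower and 8.66% higher. Of the 6 receptors 2 were called if PBMC replicate 5 was left out and 5 without both mice that stood apart. Il1r2, the decoy receptor for interleukin 1, was at 10, 10.2, 14.4, 6.43 and 22.1 TPM in PBMC replicates 1 to 5 and 13.4, 2.83, 1.76, 2.13 and 3.88 TPM in PBMC-hCG replicates 1 to 5, and Il1r1, the signalling receptor, at 20.1, 26.3, 31.7, 23.2 and 45.4 TPM in PBMC replicates 1 to 5 and 22.3, 14.9, 13.2, 13.6 and 16.9 TPM in PBMC-hCG replicates 1 to 5. PBMC-hCG replicate 1 lay inside the PBMC range for both genes, and the other 4 mice lay below it. The log2 difference was -1.68 ± 0.50 (SE) for Il1r2 and -0.82 ± 0.28 (SE) for Il1r1.

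Among NF-kB and TNF response genes 5 of 24 were lower and 0 higher, with a median of -0.03. Bcl3, a nuclear partner of NF-kB p50 and p52, was at 32.6, 32.7, 47.3, 34.5 and 40.2 TPM in PBMC replicates 1 to 5 and 20.4, 19.3, 16.1, 19.8 and 23.7 TPM in PBMC-hCG replicates 1 to 5. There was no overlap, and the log2 difference was -0.91 ± 0.29 (SE). Chemokines and their receptors had 6 of 36 lower and 2 higher, beside 7.51% and 8.66% of all tested genes. If PBMC replicate 3 was left out, 2 were lower. The calprotectin genes of neutrophils, S100a8 and S100a9, did not overlap either, at 5.14 to 10.3 TPM in PBMC against 2.53 to 3.72 TPM in PBMC-hCG mice for S100a8 (log2 difference -1.09 ± 0.44 (SE)). IF mice, which received no cells, ran from 1.45 to 9.68 TPM for S100a8 and from 1.72 to 14.1 TPM for S100a9. In the list of neutrophil markers these 2 were lower and 0 higher, beside 7.51% and 8.66% of all tested genes, and the other tested members were not called. Without PBMC replicate 2, 0 members of that list were lower. The threshold was missed for S100a8 without PBMC replicate 2, at -0.93, and for S100a9 without PBMC replicate 2 (-1.0), PBMC replicate 3 (-1.05) or PBMC-hCG replicate 2 (-0.85).

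Of 23 tested hyaluronan and matricellular genes, 7 were lower and 1 higher, with a median log2 difference of -0.13. Besides Has1 and Tnc they included Has2, at 16.1, 17, 37.9, 26.2 and 42.1 TPM in PBMC replicates 1 to 5 and 19.2, 11.6, 9.77, 13.8 and 12.2 TPM in PBMC-hCG replicates 1 to 5, with a log2 difference of -0.99 ± 0.28 (SE). Cd44, the cell surface receptor for hyaluronan, was at 44, 44.1, 49.2, 36.7 and 57 TPM in PBMC replicates 1 to 5 and 30.5, 39.2, 33.5, 31.7 and 29.9 TPM in PBMC-hCG replicates 1 to 5, a small difference of -0.48 ± 0.11 (SE). PBMC-hCG replicate 2 alone lay inside the PBMC range. Tnfaip6, which links hyaluronan chains and is induced in inflammation, differed by -0.90 ± 0.30 (SE), and the WNT-induced matricellular gene Ccn4 by -1.17 ± 0.38 (SE). With both mice that stood apart left out, 6 genes of this list were lower.

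In the BMP and TGF-beta pathway 8 of 37 tested genes were lower and 2 higher, with a median of -0.13, and 4 were lower if PBMC replicate 5 was left out. Fst, which encodes the activin antagonist follistatin, was at 11.6, 16.6, 36.8, 20.5 and 49.6 TPM in PBMC replicates 1 to 5 and 13.2, 10.7, 10.7, 6.19 and 6.35 TPM in PBMC-hCG replicates 1 to 5, a log2 difference of -1.38 ± 0.38 (SE). Its control median of 65.6 TPM lay above all 10 of these mice. Tgfbr2, a receptor subunit for TGF-beta, differed by -0.41 ± 0.15 (SE). Of 35 tested WNT pathway genes 2 were lower (5.71%) and 4 higher (11.4%), near the shares of all tested genes, and 1 was higher if PBMC replicate 2 or 5 was left out. The WNT receptor gene Fzd1 differed by -0.58 ± 0.21 (SE) and the secreted modulator Sfrp2 by 0.47 ± 0.14 (SE).

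Genes that cells induce within hours of a stimulus were lower where they differed. Of 9 tested cAMP early response genes 3 were lower and 0 higher, with a median of -0.82, and 6 were lower if PBMC replicate 1 or 2 or PBMC-hCG replicate 1 was left out. In 6 other fits without 1 mouse, those in which Nr4a3 was not called, 2 were, and 1 was higher if PBMC replicate 4 or PBMC-hCG replicate 1 was left out. These were Pde4d, a cAMP phosphodiesterase, Crem, a transcription factor, and Nr4a3, an orphan nuclear receptor. Pde4d was at 6.21, 6.63, 8.78, 6.6 and 8.58 TPM in PBMC replicates 1 to 5 and 6.58, 5.37, 5.09, 5.29 and 4.03 TPM in PBMC-hCG replicates 1 to 5, a log2 difference of -0.48 ± 0.15 (SE), and Crem differed by -0.90 ± 0.32 (SE). For Nr4a3 the difference was -2.16 ± 0.91 (SE), which missed the threshold in 6 of the 10 fits without 1 mouse, those without PBMC replicates 3, 4 or 5 or PBMC-hCG replicates 3, 4 or 5, at -1.74 to -2.08. Of 17 tested immediate early genes 3 were lower and 0 higher, and between 1 (PBMC replicate 5 or PBMC-hCG replicate 3 left out) and 9 (PBMC replicate 1 left out) were lower in the fits without 1 mouse. Of 18 unfolded protein response genes 4 were lower and 0 higher, and 1 was lower if PBMC replicate 3 or 5 or PBMC-hCG replicate 2, 3 or 5 was left out. Xbp1, the transcription factor of the latter, did not overlap, at 317, 306, 357, 302 and 393 TPM in PBMC replicates 1 to 5 and 261, 263, 246, 224 and 274 TPM in PBMC-hCG replicates 1 to 5 (log2 difference -0.40 ± 0.12 (SE)).

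Clock genes split, with 4 of 17 higher and 3 lower, beside 8.66% and 7.51% of all tested genes. If PBMC replicate 3 or 5 or PBMC-hCG replicate 4 was left out, 1 was higher. Arntl, the clock activator, was at 16.1, 15.5, 18.1, 17.8 and 20.6 TPM in PBMC replicates 1 to 5 and 14.5, 12.1, 11.2, 12.1 and 14.7 TPM in PBMC-hCG replicates 1 to 5, without overlap and with a log2 difference of -0.44 ± 0.12 (SE). Hlf, a transcription factor of the clock output, was at 7.91, 7.66, 5.58, 7.73 and 4.74 TPM in PBMC replicates 1 to 5 and 8.1, 13.4, 13.4, 14.5 and 8.93 TPM in PBMC-hCG replicates 1 to 5, likewise without overlap, a difference of 0.78 ± 0.28 (SE). Cyp1b1, an enzyme that hydroxylates estradiol and a target of the aryl hydrocarbon receptor, was at 2.29, 3.39, 3.27, 6.27 and 0.66 TPM in PBMC replicates 1 to 5 and 5.17, 7.69, 9.13, 9.34 and 7.91 TPM in PBMC-hCG replicates 1 to 5, with a log2 difference of 1.54 ± 0.47 (SE). PBMC-hCG replicate 1 lay below PBMC replicate 4. Lists without any called member were those of the S phase and mitosis (35 tested genes), sterol and fatty acid synthesis (24), endothelium (16), mitochondrially encoded genes (13), mast cells (9), dendritic cells (9), ovary and oviduct (8), eosinophils (6), adipose tissue (6), skeletal muscle (5) and embryo and trophoblast (2). With single mice left out, the lists of the S phase and mitosis, mitochondrially encoded genes, mast cells and embryo and trophoblast still had 0 called members. In the sterol list 4 were lower and 1 higher if PBMC-hCG replicate 1 was left out and 2 were lower if PBMC replicate 4 was, and the other lists had at most 1 called member in each direction. A count of 0 does not show that the genes were alike.

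**Figure D4:**
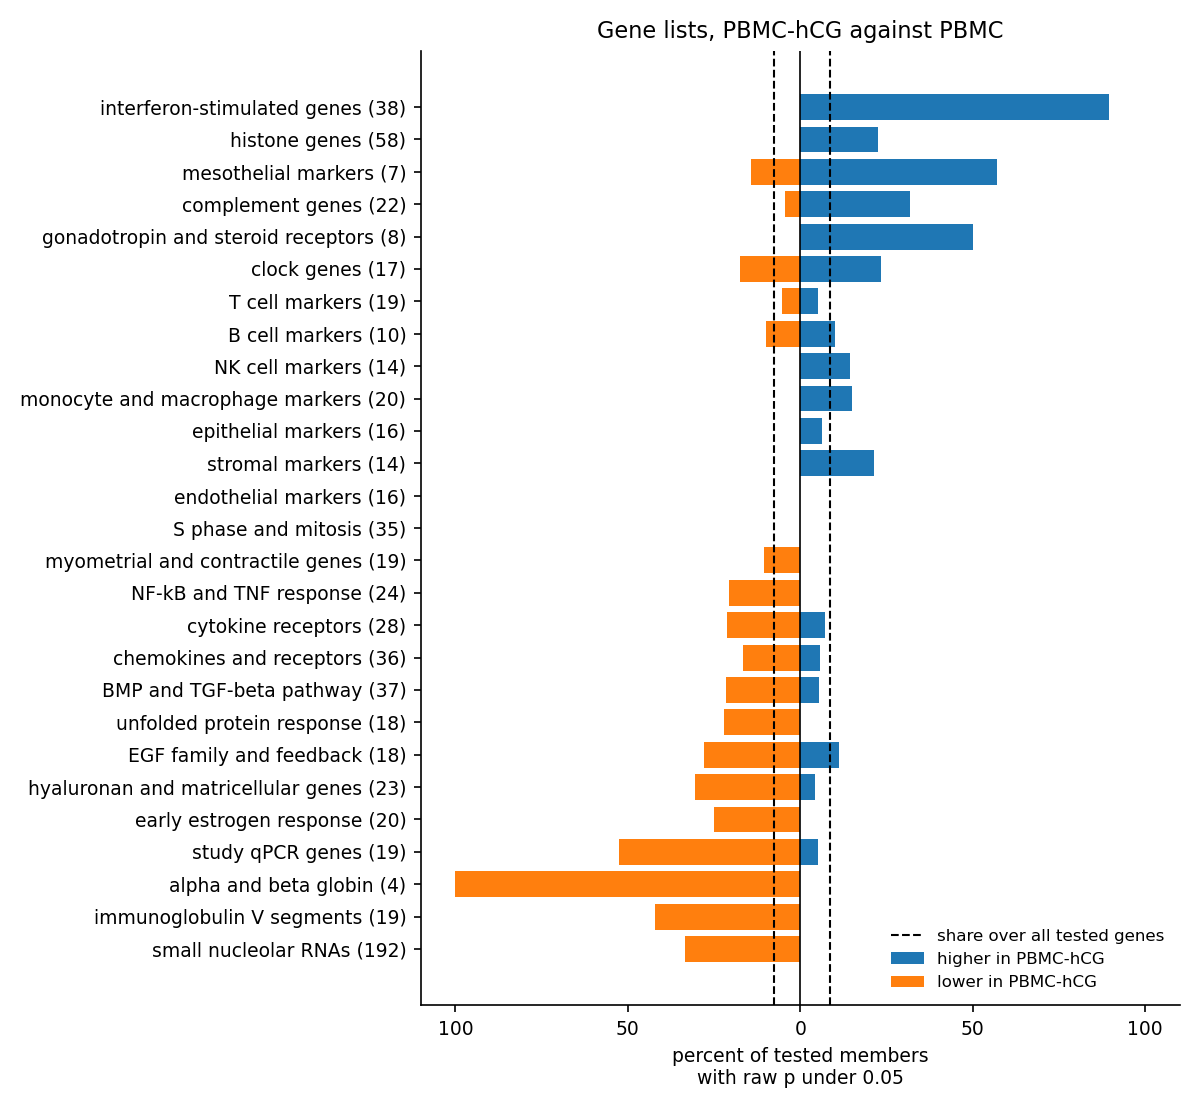
For 27 gene lists, the percent of tested members (number in parentheses) with raw p under 0.05, higher in PBMC-hCG as blue bars to the right and lower as orange bars to the left, with dashed lines at the shares over all tested genes, 8.66% and 7.51%. The bar of the interferon-stimulated genes reaches 89.5% on the higher side, and those of the small nucleolar RNAs and the genes of the study's PCR reach 33.3% and 52.6% on the lower side.

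Markers of the tissue's own cell types were also compared. Mesothelial markers, of the outer lining of the uterus, had 4 of 7 higher and 1 lower, with a median of 0.43, and 2 were higher if PBMC replicate 3 or 5 or PBMC-hCG replicate 2 was left out. Upk3b was at 34.9, 35.2, 25.2, 37.9 and 25.6 TPM in PBMC replicates 1 to 5 and 39.9, 50.5, 40.7, 45.7 and 47.9 TPM in PBMC-hCG replicates 1 to 5, with no overlap (log2 difference 0.51 ± 0.17 (SE)). Of 14 stromal markers 3 were higher and 0 lower, of which 1 was called if PBMC replicate 3 or 5 or PBMC-hCG replicate 4 was left out, of 16 epithelial markers 1 and 0, and of 19 myometrial and contractile genes 0 and 2. The 2 lower myometrial genes became 8 if PBMC-hCG replicate 1 was left out or both mice that stood apart were, 7 if PBMC replicate 4 and 4 if PBMC replicate 5 was, and 7 after median scaling. The epithelial count lay between 0 and 3, with 3 if PBMC replicate 5, PBMC-hCG replicate 1 or both were left out and 0 if PBMC replicate 1 or 3 or PBMC-hCG replicate 2, 3 or 4 was. The summed TPM of the myometrial list ran from 9990.2 to 12293 in PBMC and from 8512 to 10714 in PBMC-hCG mice. Pdgfra, a receptor of stromal cells, differed by 0.38 ± 0.12 (SE) and Des by -0.50 ± 0.18 (SE). Their part in the results above was not tested.

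Histone genes had 13 of 58 tested members higher and 0 lower, beside 8.66% and 7.51% of all tested genes, with a median of 0.29. H2bc4 was at 113, 134, 113, 141 and 104 TPM in PBMC replicates 1 to 5 and 133, 168, 168, 177 and 144 TPM in PBMC-hCG replicates 1 to 5, a log2 difference of 0.39 ± 0.10 (SE). Replication-dependent histone messages carry no poly(A) tail, and the count moved with the mice, being 3 if PBMC replicate 5 and 7 if PBMC-hCG replicate 3 was left out, and 18 if PBMC replicate 2 or PBMC-hCG replicate 1 was.

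Globin transcripts mark red cells in the tissue. All 4 tested globin genes were called lower, with log2 differences of -0.87 to -0.90. Their summed TPM was 589, 479, 1678, 1151 and 1069.8 in PBMC and 403, 340, 598, 875 and 376 in PBMC-hCG replicates 1 to 5. The ranges overlapped, and none of the 4 was called without PBMC replicate 3 or without both mice that stood apart. Immunoglobulin V segments, the rearranged genes of antibodies, had 8 of 19 tested members lower and 0 higher, with a median of -1.85, 9 without both mice that stood apart, and 4 if PBMC replicate 5 or PBMC-hCG replicate 2 was left out. Igkv5-43 was at 10.1, 51.7, 838, 3.57 and 470 TPM in PBMC replicates 1 to 5 and 1.01, 1.82, 2.05, 0.738 and 0.562 TPM in PBMC-hCG replicates 1 to 5, a log2 difference of -5.63 ± 1.48 (SE), and Igkv17-121 at 26, 32.8, 6.08, 5.41 and 4.32 TPM in PBMC replicates 1 to 5 and 0.706, 1.37, 0.343, 0.127 and 2.28 TPM in PBMC-hCG replicates 1 to 5. Neither overlapped, the PBMC values of Igkv5-43 alone ran from 3.57 to 838 TPM, and reads may be shared between segments. The summed V segment TPM ran from 576 to 3360.2 in PBMC, from 174 to 944 in PBMC-hCG, from 1815 to 6794 in control and from 78 to 4441 in IF mice. The range of the IF group, which received no cells, held all 10 mice compared here.

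Small nucleolar RNAs, which guide the modification of ribosomal RNA, were lower in many cases. This class was chosen after its values had been seen. Of 192 tested members 64 were lower and 0 higher, with a median log2 difference of -0.45, against 7.51% and 8.66% of all tested genes. Without both mice that stood apart 58 were lower and 1 higher, without PBMC replicate 5 alone 37, and without PBMC-hCG replicate 4 alone 41. In sum they came to 1903, 1958, 2098, 1374 and 2739 TPM in PBMC and 1899, 1234, 1139, 1145 and 1566 TPM in PBMC-hCG replicates 1 to 5. The PBMC range held PBMC-hCG replicates 1 and 5, and the other 3 mice lay below it. These RNAs have no poly(A) tail, and the libraries were poly(A)-selected.

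One of them, LOC115490267 (NCBI gene 115490267, chr5:107907345-107907476), passed adjustment. It was at 1.06, 2.45, 2.87, 1.72 and 2.93 TPM in PBMC replicates 1 to 5 and 0.344, 0.224, 0.274, 0.527 and 0.298 TPM in PBMC-hCG replicates 1 to 5, with every PBMC-hCG mouse below every PBMC mouse. Its log2 difference was -2.36 ± 0.33 (SE; limma, Benjamini-Hochberg adjusted p = 0.00831). With a pseudocount of 1 the adjusted p was 0.182, and without both mice that stood apart it was 0.13, while in the other fits it lay between 0.0047 and 0.0488. Snora52 was at 7.46, 8.82, 9.22, 7.25 and 10.9 TPM in PBMC replicates 1 to 5 and 5.84, 4.01, 3.64, 6.48 and 2.3 TPM in PBMC-hCG replicates 1 to 5, with no overlap (log2 difference -1.03 ± 0.21 (SE)), and Snord68 at 8.66, 7.07, 10.8, 8.63 and 11.7 TPM in PBMC replicates 1 to 5 and 6.31, 1.43, 2.36, 4.82 and 4.59 TPM in PBMC-hCG replicates 1 to 5, without overlap (log2 difference -1.40 ± 0.32 (SE)). Of 19 host genes of small nucleolar RNAs taken by name (Snhg genes, Gas5 and Dancr), 4 were lower (21.1%) and 1 higher (5.26%), with a median of -0.03. They were not matched to the RNAs above, whose own host genes were not looked up.

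A few other short structured RNAs were higher. Of 6 tested genes of the 7SL, 7SK, RMRP, RPPH1 and Y RNAs, also chosen after their values were seen, 5 were higher and 0 lower, with a median of 1.04. Rn7s1, the RNA of the signal recognition particle, was at 70.9, 68.2, 32.6, 18.7 and 19.3 TPM in PBMC replicates 1 to 5 and 70.5, 101, 51.5, 69.5 and 82.5 TPM in PBMC-hCG replicates 1 to 5, a log2 difference of 1.04 ± 0.35 (SE). The PBMC group spread widely, and its replicates 1 and 2 lay within the PBMC-hCG range. The median of Rn7s1 was 98.2 TPM in control, 73.8 TPM in IF, 32.6 TPM in PBMC and 70.5 TPM in PBMC-hCG mice, so that the PBMC group was the lowest. Rmrp, the RNA of an endonuclease that trims ribosomal RNA, differed by 1.06 ± 0.35 (SE), and the U1 spliceosomal RNA gene Rnu1a1 by 1.53 ± 0.42 (SE). For Rnu1a1 the medians were 5.64 TPM in control, 4.79 TPM in IF, 1.12 TPM in PBMC and 5.13 TPM in PBMC-hCG mice. Without both mice that stood apart 4 of the 6 were higher. Of 59 tested small nuclear RNAs 7 were higher (11.9%) and 5 lower (8.47%), near the shares of all tested genes, and 15 were higher if PBMC replicate 1 and 12 if PBMC-hCG replicate 4 was left out, with 2 lower in the latter fit.

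**Figure D5:**
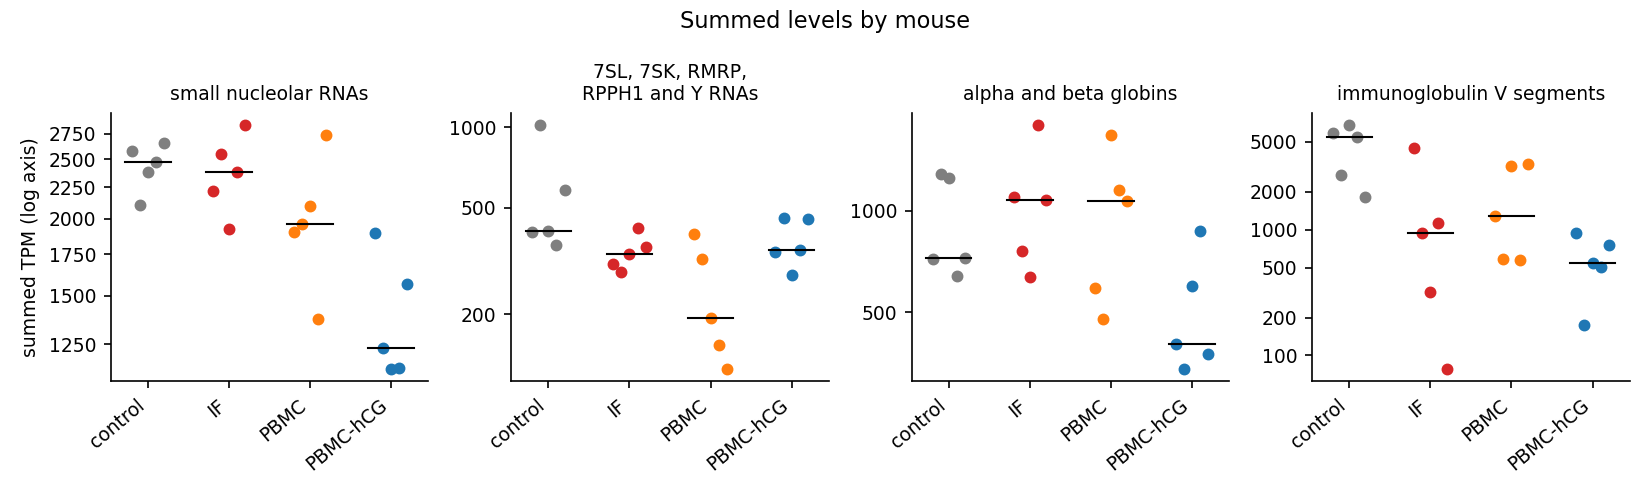
Summed TPM on a log axis of 4 groups of transcripts in each of the 20 mice, by group, with replicates 1 to 5 from left to right and a black line at the group median. The small nucleolar RNAs lie between 1139 and 1899 TPM in PBMC-hCG and between 1374 and 2739 TPM in PBMC mice, and the globins between 340 and 875 TPM and between 479 and 1678 TPM.

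The other gene that passed adjustment was Gm39043 (NCBI gene 105242985, chr7:83814084-83838259), a long noncoding RNA of unknown function. It was at 0.266, 0.234, 0.2, 0.348 and 0.351 TPM in PBMC replicates 1 to 5 and 0.601, 0.726, 0.829, 0.865 and 0.916 TPM in PBMC-hCG replicates 1 to 5. Every PBMC-hCG mouse was above every PBMC mouse, and the medians were 0.239 TPM in the control and 0.339 TPM in the IF group. Its log2 difference was 1.23 ± 0.16 (SE; limma, Benjamini-Hochberg adjusted p = 0.00813). In a fit of the 10 libraries alone the adjusted p was 0.0529, and in the other fits it lay between 0.0011 and 0.0457. The gene averaged under 1 TPM and was not in the fit restricted to a mean of at least 1 TPM.

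Further genes with no overlap and large differences at a mean of at least 1 TPM spanned unrelated functions. Fam13a was at 12.7, 13.8, 7.14, 12.4 and 2.92 TPM in PBMC replicates 1 to 5 and 22, 21.9, 20.6, 28.2 and 17.6 TPM in PBMC-hCG replicates 1 to 5 (log2 difference 1.34 ± 0.44 (SE)). Tm4sf4, a membrane protein of epithelia, was at 3.41, 3.99, 3.47, 4.88 and 3.03 TPM in PBMC replicates 1 to 5 and 4.96, 8.7, 10.7, 8.27 and 6.53 TPM in PBMC-hCG replicates 1 to 5 (log2 difference 1.01 ± 0.25 (SE)), and Tll1, a protease that matures collagen and BMPs, at 3.86, 6.62, 5.59, 6.97 and 4.65 TPM in PBMC replicates 1 to 5 and 9.83, 15, 8.36, 12.1 and 9.66 TPM in PBMC-hCG replicates 1 to 5 (log2 difference 0.98 ± 0.25 (SE)). All 3 remained at a raw p under 0.05 in every alternative.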

How the data were processed

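Uterine RNA of 20 mice was sequenced, 5 in each of 4 groups. Per the labels and the study's methods, the authors made stranded poly(A)-selected mRNA libraries, trimmed reads with Trimmomatic, aligned them to mm10 with HISAT2 and assembled them with StringTie. They deposited TPM values for 45777 genes in 1 table. Read counts were not used here, so the study's test of counts could not be repeated.

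Groups were taken from the sample labels. Genes above 0 TPM in all 20 libraries (18706) were kept, and log2(TPM + 0.1) was fitted for all 4 groups together by limma 3.58.1 (R 4.3.3), letting the variance follow the mean level. P-values were adjusted by Benjamini-Hochberg over all tested genes. For single values, a two-sided exact permutation test ran through all arrangements of the mice, with 0.00794 as its smallest p. On simulated data for this comparison (18706 genes), the adjusted test found 82 of 100 genes changed by a log2 of 1 and 98 of 100 changed by a log2 of 2, with 6 false calls. The simulated noise was drawn separately for each gene, and only genes averaging above about 1 TPM were changed. Mice in which many genes deviate together were not simulated, so these rates need not hold for the real libraries.

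Named genes were those past adjustment, the 10 largest differences in each direction without overlap at a mean of at least 1 TPM, up to 3 genes per list by raw p, the genes of the study's PCR, implantation and receptor lists, and others added after their values were seen (Ifnar1, Ifit3b and further members of the lists described). The comparison and the 64 gene lists were chosen with earlier results of these data known. RNA classes were taken from RefSeq biotypes, matched for 18662 tested genes, and promoters from RefSeq on GRCm38.p6. The alternatives changed the pseudocount, filter, scaling, variance model, samples in the fit, replicate block and each mouse in turn.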

Additional observations from a re-analysis of the deposited data

Results flagged for a closer look

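In 11 of the 188 groups of 5 mice looked at, for the genes named above, PC1 and the number of genes above 0 TPM, 1 mouse stood apart from its group by Dixon's ratio, the gap to the nearest mouse over the range of the group on the log2(TPM + 0.1) scale; chance alone gives about 1 in 20 such groups. PBMC replicate 4 was highest of its group in Gbp2 (ratio 0.739) and Vnn1 (0.811). PBMC-hCG replicate 1 was highest of its group in Wnt4 (0.826), Ackr3 (0.746), Ccn4 (0.808), Fzd1 (0.769) and Dio3 (0.789) and lowest on PC1 (0.756, on the component's own scale). PBMC-hCG replicate 2 was highest in Ifnar2 (0.719), and lowest in S100a9 (0.825) and in the number of genes above 0 TPM (0.89, on the count itself). Outside the tested genes, 9 genes were listed at 0 in all PBMC libraries and above 0 in all PBMC-hCG libraries.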

How the results depend on the processing

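The number of genes past a fold change of 2 at a raw p under 0.05 depended on low TPM values. It was 167 (72 higher, 95 lower), became 68 (21 and 47) with a pseudocount of 1 and 499 (258 and 241) with no filter on low values, and had 118 higher with a pseudocount of 0.01. At a fold of 1.5 it was 748. With single mice left out it ran from 105 to 288, the higher genes from 40 (without PBMC replicate 5) to 122 (without PBMC replicate 4), the lower ones from 65 to 169 (without PBMC-hCG replicate 1) and the genes at a raw p under 0.05 from 1391 (PBMC replicate 5 left out) up to 4281 (PBMC-hCG replicate 1 left out). Adjusted calls numbered 2 to 7 with single mice left out, 7 without PBMC-hCG replicate 1, and 1 with a pseudocount of 1, a mean of at least 1 TPM, or both mice that stood apart left out, an alternative chosen after seeing the data. Small nucleolar RNAs called lower ran from 37 (without PBMC replicate 5) to 92 (without PBMC replicate 4). The PC1 difference, in SD of the component, was 1.29 and ran from 1.19 to 1.48. The difference in genes above 0 TPM, 558, was 257 at 0.1 TPM or more and 39.2 at 1 TPM or more. Pgr, not called, changed sign without PBMC replicate 5 (0.04) and PBMC-hCG replicate 3 (0.05), within a range of -0.16 to 0.05. The cause was not tested. Same-numbered PBMC and PBMC-hCG mice did not deviate together (correlations of -0.198, 0.0818, -0.0878, 0.16 and -0.0825 for numbers 1 to 5), so the numbers give no pairing between these groups. Number 5 of the other groups did, at 0.396 for control and IF, 0.272 for control and PBMC and 0.457 for IF and PBMC. Mice of unlike numbers reached 0.567 (control 2 and IF 3). What the numbers stand for is not given in the labels, and a shared factor was not tested. With the replicate block 173 genes were called, 74 higher and 99 lower. Read depth is unknown, so counting error could not be separated from the spread between mice.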

Other observations

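The imprinted Dlk1-Dio3 region of chromosome 12 held genes that differed in both directions, and it was picked after its values were seen. Dlk1, a paternally expressed regulator of differentiation, was at 0.206, 0.504, 1.09, 1.23 and 0.346 TPM in PBMC replicates 1 to 5 and at 2.2, 1.61, 2, 1.15 and 1.87 TPM in PBMC-hCG replicates 1 to 5. Only PBMC replicate 4 reached into the PBMC-hCG range, and the log2 difference of Dlk1 was 1.46 ± 0.42 (SE; limma, adjusted p = 0.264). Mirg, a maternally expressed microRNA host gene of the region, was at 6.36, 6.44, 7.67, 5.26 and 10.7 TPM in PBMC and at 5.65, 2.04, 2.27, 2.08 and 3.37 TPM in PBMC-hCG mice, with PBMC-hCG replicate 1 alone inside the PBMC range. Its log2 difference was -1.29 ± 0.28 (SE; limma, adjusted p = 0.264). Dio3, which inactivates thyroid hormone, was at 5.86, 12, 15.8, 4.66 and 39.6 TPM and at 8.29, 1.48, 1.24, 1.66 and 1.87 TPM, a log2 difference of -2.36 ± 0.90 (SE; limma, adjusted p = 0.283) that missed the threshold without PBMC replicate 5, at -1.91. The maternally expressed long noncoding RNAs Meg3 and Rian differed by -0.28 and -0.54, and each missed the threshold in 4 of the 10 fits without 1 mouse, Meg3 when PBMC replicate 1 or 2 or PBMC-hCG replicate 3 or 4 was left out (-0.19 at the smallest) and Rian when PBMC replicate 1 or 5 or PBMC-hCG replicate 2 or 4 was (-0.39 at the smallest).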
